A study of Mus musculus with 4 samples.

Results

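The 7 chemokine receptor genes Cxcr2, Cxcr4, Ccr1, Ccr2, Ccr7, Cx3cr1 and Ccrl2 were followed in myeloid-derived suppressor cells (MDSCs) that had been grown from mouse bone marrow. They were taken by symbol from the 32285 genes of the count files, and all 7 had at least 50 UMIs (unique molecular identifiers, which count RNA molecules) in every pair of libraries compared, so none was lost to the filter on low counts. Marrow of the femur and tibia was cultured for 4 days with 40 ng/mL of each of the cytokines GM-CSF and IL-6, and live cells carrying the myeloid surface marker CD11b were sorted for 10x single-cell RNA sequencing. The 4 libraries, 1 per group, came from wild-type cells (WT) and cells labelled B2AR KO, each without and with isoproterenol (ISO, 10 µM), a drug that activates β-adrenergic receptors. They are named WT+PBS, WT+ISO, B2AR KO+PBS and B2AR KO+ISO after the sample titles and the study's methods, whereas the treatment field gives isoproterenol for all 4.

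The study's methods name C57BL/6J mice as WT and knockout mice on a C57BL/6 background, 6 to 10 weeks of age. How many animals went into a culture is not given in the sources used here. All 4 cultures shared the cytokines, and no untreated marrow was in the series. With 1 library per group there was no replicate error, and differences were not tested. Intervals beside values are 95% intervals, which account for counting error alone and say nothing of how cultures or mice vary.

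Chemokine receptors are G protein-coupled receptors that steer leukocytes along gradients of chemokines. In the marrow, CXCR4 binds CXCL12 from stromal cells and holds neutrophils back, while CXCR2 binds CXCL1 and CXCL2 and draws mature neutrophils into blood. CCR2 brings monocytes out of the marrow toward CCL2 and CCL7, CCR1 answers CCL3, CCL6 and CCL9 in many myeloid cells, and CX3CR1 binds CX3CL1 and marks monocytes and macrophages of blood and tissue. CCR7 leads dendritic cells to lymph nodes toward CCL19 and CCL21, and CCRL2 is an atypical receptor that binds chemerin without signaling through G proteins.

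The members lie on 3 chromosomes of the mouse build GRCm38.p6. Cxcr2 (chr1:74153994-74161246, plus strand) and Cxcr4 (chr1:128588199-128592299, minus strand) are on chromosome 1. Ccrl2 (chr9:111054834-111057518, minus strand), Cx3cr1 (chr9:120048683-120068296, minus strand), Ccr1 (chr9:123962126-123968692, minus strand) and Ccr2 (chr9:124101918-124109140, plus strand) are on chromosome 9, and Ccr7 (chr11:99144199-99155077) is on chromosome 11. How reads shared by related genes were counted is not given in the sources used here.

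The promoters of Cxcr2 and Ccr1 are shown because these genes had their lowest and highest levels at the same ends of the neutrophil-like clusters. That of Cxcr4 is shown because its level followed another course and, in WT but not in B2AR KO, was called lower with ISO within several clusters. Each line gives the 250 bases before the RefSeq gene start (GRCm38.p6, 5′ to 3′ in the direction of the gene). Capitals mark matches, on either strand, to GAGGAA (bound by PU.1), TTNNGNAA (bound by C/EBP factors) or TGACG (the core of the cAMP response element). PU.1 and C/EBP factors direct myeloid differentiation, and cAMP is the messenger made after β-adrenergic receptors are activated.
Cxcr2, chr1:74153744-74153993, plus strand: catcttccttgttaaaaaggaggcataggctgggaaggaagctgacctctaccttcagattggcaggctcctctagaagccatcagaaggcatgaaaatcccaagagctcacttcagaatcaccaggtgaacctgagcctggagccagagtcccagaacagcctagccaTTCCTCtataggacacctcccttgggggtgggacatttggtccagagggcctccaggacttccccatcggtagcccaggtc
Ccr1, chr9:123968693-123968942, minus strand: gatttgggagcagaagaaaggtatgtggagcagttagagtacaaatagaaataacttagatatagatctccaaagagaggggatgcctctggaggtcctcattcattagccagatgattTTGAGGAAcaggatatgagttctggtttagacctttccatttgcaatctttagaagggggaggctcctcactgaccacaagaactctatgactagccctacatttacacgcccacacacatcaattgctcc
Cxcr4, chr1:128592300-128592549, minus strand: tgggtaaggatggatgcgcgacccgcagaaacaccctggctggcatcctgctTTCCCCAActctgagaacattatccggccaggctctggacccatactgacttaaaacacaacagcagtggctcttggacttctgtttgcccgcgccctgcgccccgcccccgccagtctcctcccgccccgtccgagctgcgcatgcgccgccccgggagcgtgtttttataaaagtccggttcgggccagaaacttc

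The Cxcr2 window held 1 match, to GAGGAA on the minus strand, starting 81 bases before the gene. In the Ccr1 window 1 run of 8 bases matched TTNNGNAA and, within it, GAGGAA, starting 131 and 129 bases before the gene, so these 2 matches overlap. The Cxcr4 window held 1 match to TTNNGNAA, 198 bases before the gene. Of the other members, Ccr2 had a match to TTNNGNAA 243 bases before its RefSeq start and Cx3cr1 had none. Ccrl2 has 3 starts in the table, and the windows of 2 of them held the same TGACG, 218 and 244 bases before the start. TGACG was not found in the windows of Cxcr2, Ccr1, Cxcr4, Ccr2 and Cx3cr1, and the full element TGACGTCA was in none of the 6 genes searched. Over the 27025 promoters of the same length, 23.1% held GAGGAA, 36.9% TTNNGNAA, 17.9% TGACG and 1.62% TGACGTCA. The matches are descriptions of the letters and no measure of binding.

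After cells with under 200 genes or over 10% mitochondrial UMIs were left out, 9303 of 9525 barcodes remained, with 2039 to 2790 cells and 19357824 to 29400468 UMIs per library. No barcode occurred in more than 1 library. Median UMIs per cell ran from 7484 to 10252 and were highest in WT+ISO. Itgam, which encodes CD11b, had a UMI in 85.2 to 88.4% of cells.

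The cells formed 14 clusters, numbered 0 to 13, by the Leiden method on 2000 variable genes with the members left out. Names were given from markers of each class by a rule written after the clusters had been seen. Cluster 7 (651 cells, led by Mpo and Elane) was azurophil-granule neutrophil progenitor-like. Clusters 8, 6 and 3 (651, 676 and 963 cells, with Camp, Ngp or Ltf among their leading genes) were specific-granule immature neutrophil-like. Cluster 3 took this name from 1 leading marker, Ltf. In it 6 of 8 mature neutrophil markers were at least 1 log2 unit above the other cells, beside 5 of 7 specific-granule markers. Cluster 4, with 959 cells and Mmp9 and Retnlg in its lead, was called mature neutrophil-like. Cluster 2 (1000 cells, C1qb and Mrc1) was macrophage-like, cluster 12 (78 cells, Ccl22 and Fscn1) migratory dendritic cell-like and cluster 13 (25 cells, H2-Ab1) MHC class II dendritic cell-like. In cluster 2, 5 of 6 monocyte and 5 of 7 MHC class II dendritic cell markers were also at least 1 log2 unit above the other cells. The latter 7 summed to 3248 CPM there, beside 14245 CPM in cluster 12 and 20969 CPM in cluster 13.

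No cluster met the rule for monocytes, though 1 of 13 did with a stricter filter on cells (1000 genes or more, mitochondrial share up to 5%). The name of cluster 13 was lost when cells were filtered or clustered differently. The 6 monocyte markers summed to 2208 CPM in cluster 2, 2159 CPM in cluster 5 and 1606 CPM in cluster 1, but also to 1909 CPM in cluster 3. The other 6 clusters stayed unnamed and are called by number and leading genes: 0 (1529 cells, Acta2 and Il1b), 1 (1095 cells, Matn2 and Psat1), 5 (680 cells, Csta3 and F13a1), 9 (376 cells, Gpnmb and Ccl4), 10 (368 cells, Stfa3) and 11 (252 cells, Cstdc5). No doublets were called, and cells of very high UMIs may hold more than 1 cell.

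Cxcr2, the receptor for release into blood, was highest in the mature neutrophil-like cluster. Over all cells, its level ran along the neutrophil-like clusters from 3.19 CPM (2.34 to 4.24) in cluster 7 through 13.99, 47.9 and 168 CPM in clusters 8, 6 and 3 to 309 CPM (293 to 325) in cluster 4. Each of these intervals was apart from the next. The log2 ratio of the mature to the azurophil class was 6.60 (6.18 to 7.05), and was 6.04 with 4000 variable genes and 6.05 at resolution 1.5, the lowest of the other settings. In cluster 4 the 4 libraries were alike, with 311 CPM in WT+PBS, 305 CPM in WT+ISO, 318 CPM in B2AR KO+PBS and 299.9 CPM in B2AR KO+ISO. Clusters 4, 3, 0 and 10 held the 4 highest Cxcr2 levels in that order in each of the 4 libraries.

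A UMI of Cxcr2 was found in 70.3% of the cells of cluster 4 (67.3 to 73.2%; median 4382 UMIs per cell). In the azurophil-like cluster, which precedes Cxcr2 expression, it was found in 5.38% of cells although these had a median of 21845 UMIs. With cells thinned to 2000 UMIs the shares were 46.5% of 910 and 0.464% of 646 cells. This thinning, used for each member, left out cells with fewer UMIs: 181 in WT+PBS, 127 in WT+ISO, 218 in B2AR KO+PBS and 184 in B2AR KO+ISO. The macrophage-like cluster stood at 9.05 CPM, the migratory dendritic cell-like cluster at 2.86 CPM on 3 UMIs.

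**Figure D1:**
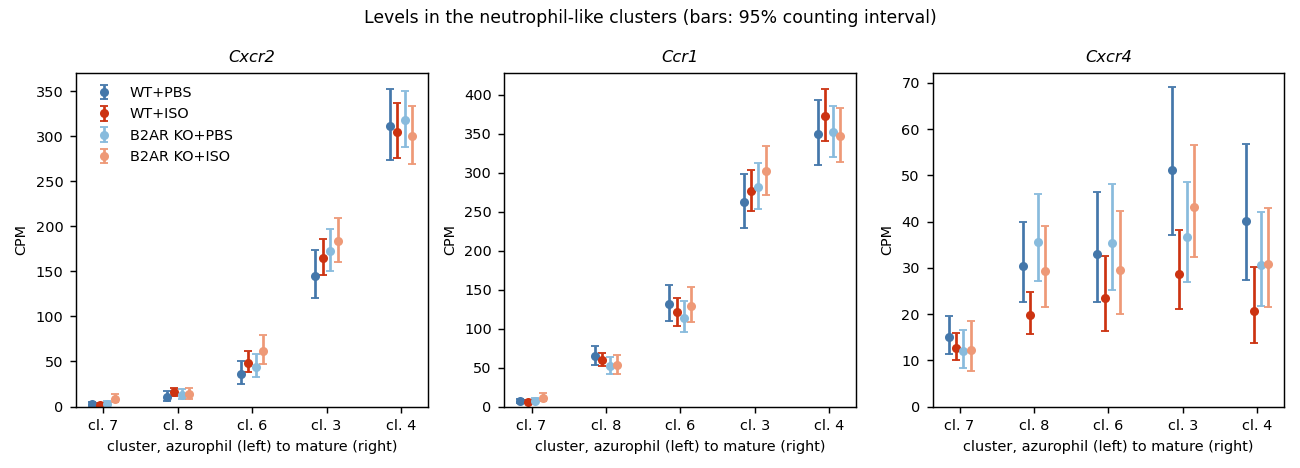
Levels of Cxcr2, Ccr1 and Cxcr4 (CPM, linear axis from 0) in the 5 neutrophil-like clusters, ordered from azurophil (7) over specific-granule (8, 6, 3) to mature (4). Points are the 4 libraries and bars 95% counting intervals. Cxcr2 and Ccr1 are higher at each step in every library, whereas Cxcr4 is highest in cluster 3, and the WT+ISO points lie lowest for Cxcr4 in clusters 8, 6, 3 and 4.

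Ccr1, a receptor for inflammatory CC chemokines, was the most widely detected member, with a UMI in 6211 of 9303 cells. It followed the same order of neutrophil-like clusters, from 7.05 CPM (5.76 to 8.55) in cluster 7 through 58.1, 123 and 282 CPM in clusters 8, 6 and 3 to 357 CPM (339 to 374) in cluster 4. The log2 ratio of the mature to the azurophil class was 5.66 (5.37 to 5.96), between 5.38 and 5.78 under the other settings. Unlike Cxcr2, its highest level was outside the named neutrophil clusters, in cluster 0, with 382 CPM in WT+PBS, 431 CPM in WT+ISO, 373 CPM in B2AR KO+PBS and 405 CPM in B2AR KO+ISO. Cluster 0 (median 3003 UMIs per cell) took no name, though 5 of 8 mature neutrophil markers were at least 1 log2 unit above the other cells. These 8 markers summed to 4195 CPM there, beside 4439 CPM in cluster 3 and 7754 CPM in cluster 4. In each library cluster 0 came before cluster 4, with intervals of the 2 levels that overlapped. Ccr1 was also high in the macrophage-like cluster, where Cxcr2 was low, at 202 CPM. In cluster 5 Ccr1 stood at 210 CPM, while Cxcr2 ran from 31.4 CPM in WT+ISO to 56.8 CPM in B2AR KO+PBS.

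Cxcr4, the receptor for retention in the marrow, spanned a narrower range than Cxcr2 and Ccr1. It stood at 13.1 CPM (11.3 to 15.1) in the azurophil-like cluster, at 26.6, 29.7 and 38.1 CPM in the specific-granule clusters 8, 6 and 3, and at 29.5 CPM (24.7 to 35.0) in the mature cluster. Of these last 4 clusters, the intervals of 8 and 3 were apart, while those of clusters 6 and 4 overlapped both. The log2 ratio of the specific-granule to the azurophil class was 1.22 (0.98 to 1.46). Its lowest levels were in cluster 5 (3.77 CPM) and the macrophage-like cluster (4.20 CPM). In cluster 13, 0 of 25 cells had a UMI, which allows a share of up to 12%, taken as 3 of the 25 cells. Shares of cells with a UMI went against these levels, with 25.3% in cluster 7 and 17.3% in cluster 3. Cells of cluster 7 held more UMIs of all genes, with a median of 21845 against 4971 in cluster 3. Counted per cell, Cxcr4 was not lower in cluster 7, with 193 UMIs in 651 cells against 188 UMIs in 963 cells of cluster 3. Its lower level in cluster 7 thus holds relative to all UMIs of the cells. At 2000 UMIs per cell the shares of cells were 2.63% in cluster 7 and 7.58% in cluster 3.

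Ccr2, the receptor for monocyte release, lay mostly in 3 clusters. Of its 13784 UMIs, 42.8% lay in the macrophage-like cluster 2, 32.7% in cluster 1 and 21.0% in cluster 5. Its level was 434 CPM (423 to 446) in cluster 2, 287 CPM (277 to 298) in cluster 5 and 189 CPM (183 to 194) in cluster 1, and these 3 held the same order in every library. In the 5 neutrophil-like clusters it ran from 2.23 to 4.78 CPM. A UMI was found in 94.3% of cells of cluster 2 (median 13155 UMIs) against 0.834% in the mature neutrophil-like cluster (median 4382 UMIs). At 2000 UMIs per cell the shares were 54.7% and 0.330%.

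The log2 ratio of Ccr2 between the macrophage-like and the mature neutrophil-like class was 7.47 (6.63 to 8.48). It was 4.27 at resolution 1.5 and 5.79 with 4000 variable genes, where 3 and 2 clusters in place of 1 took the mature neutrophil name. Of 2742 cells with a UMI of Ccr2, 84.1% also had one of Ccr1. In cluster 5, 34.1% of cells had UMIs of both Ccr2 and Cxcr2, against 24.3% in cluster 1, 8.40% in cluster 2 and 0.626% in cluster 4. Median UMIs per cell were 14376.5, 21302, 13155 and 4382 in this order, and the shares of pairs were not thinned.

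Ccr7, the receptor that leads dendritic cells to lymph nodes, was nearly limited to the migratory dendritic cell-like cluster. This cluster of 78 cells held 1119 of the 1158 Ccr7 UMIs (96.6%), at 1068 CPM (1007 to 1133). The other clusters stood between 0 and 1.67 CPM, apart from 10.1 CPM on 4 UMIs in the 25 cells of cluster 13. The log2 ratio of the migratory dendritic cell-like to the macrophage-like class was 10.37 (9.52 to 11.37), and fell to 8.93 with each cell weighted equally and 9.13 at resolution 1.5. A UMI was found in 98.7% of cells of cluster 12 (median 11718 UMIs) and in 0.104% of those of cluster 4 (median 4382 UMIs), or 85.7% and 0% when thinned to 2000 UMIs. The highest cell held 59 UMIs.

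Ccrl2, the atypical chemerin receptor, was highest in cluster 9, with 95.4 CPM in WT+PBS, 53.2 CPM in WT+ISO, 64.2 CPM in B2AR KO+PBS and 74.0 CPM in B2AR KO+ISO. Cluster 9 led in all 4 libraries. Over all cells the next levels were 32.0 CPM in cluster 0, 16.0 CPM in the mature neutrophil-like cluster and 11.5 CPM in the azurophil-like cluster, whereas the specific-granule clusters between them had 2.43 to 6.71 CPM. The value of cluster 4 rested in part on 1 library, with 32.6 CPM in WT+PBS against 8.66 to 20.3 CPM in the other 3. In cluster 9, 21.8% of cells had a UMI (median 4150.5 UMIs), 12.3% when thinned, against 1.14% and 0.446% in cluster 3 (median 4971 UMIs).

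Cx3cr1, the fractalkine receptor, was the least detected member, with 319 UMIs in 9303 cells. Its levels ran from 1.26 to 12.7 CPM, the highest on 5 UMIs in cluster 13. Cluster 0 stood at 8.76 CPM (6.58 to 11.4) and the macrophage-like cluster at 5.67 CPM (4.47 to 7.08), against 2.89 CPM (1.54 to 4.94) in the mature neutrophil-like cluster. A UMI was found in 6.50% of macrophage-like cells (median 13155 UMIs) and 1.25% of mature neutrophil-like cells (median 4382 UMIs). Thinned to 2000 UMIs the shares were 1.20% (0.623 to 2.09%) and 0.769% (0.310 to 1.58%), which overlap, so no difference in detection was resolved.

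**Figure D2:**
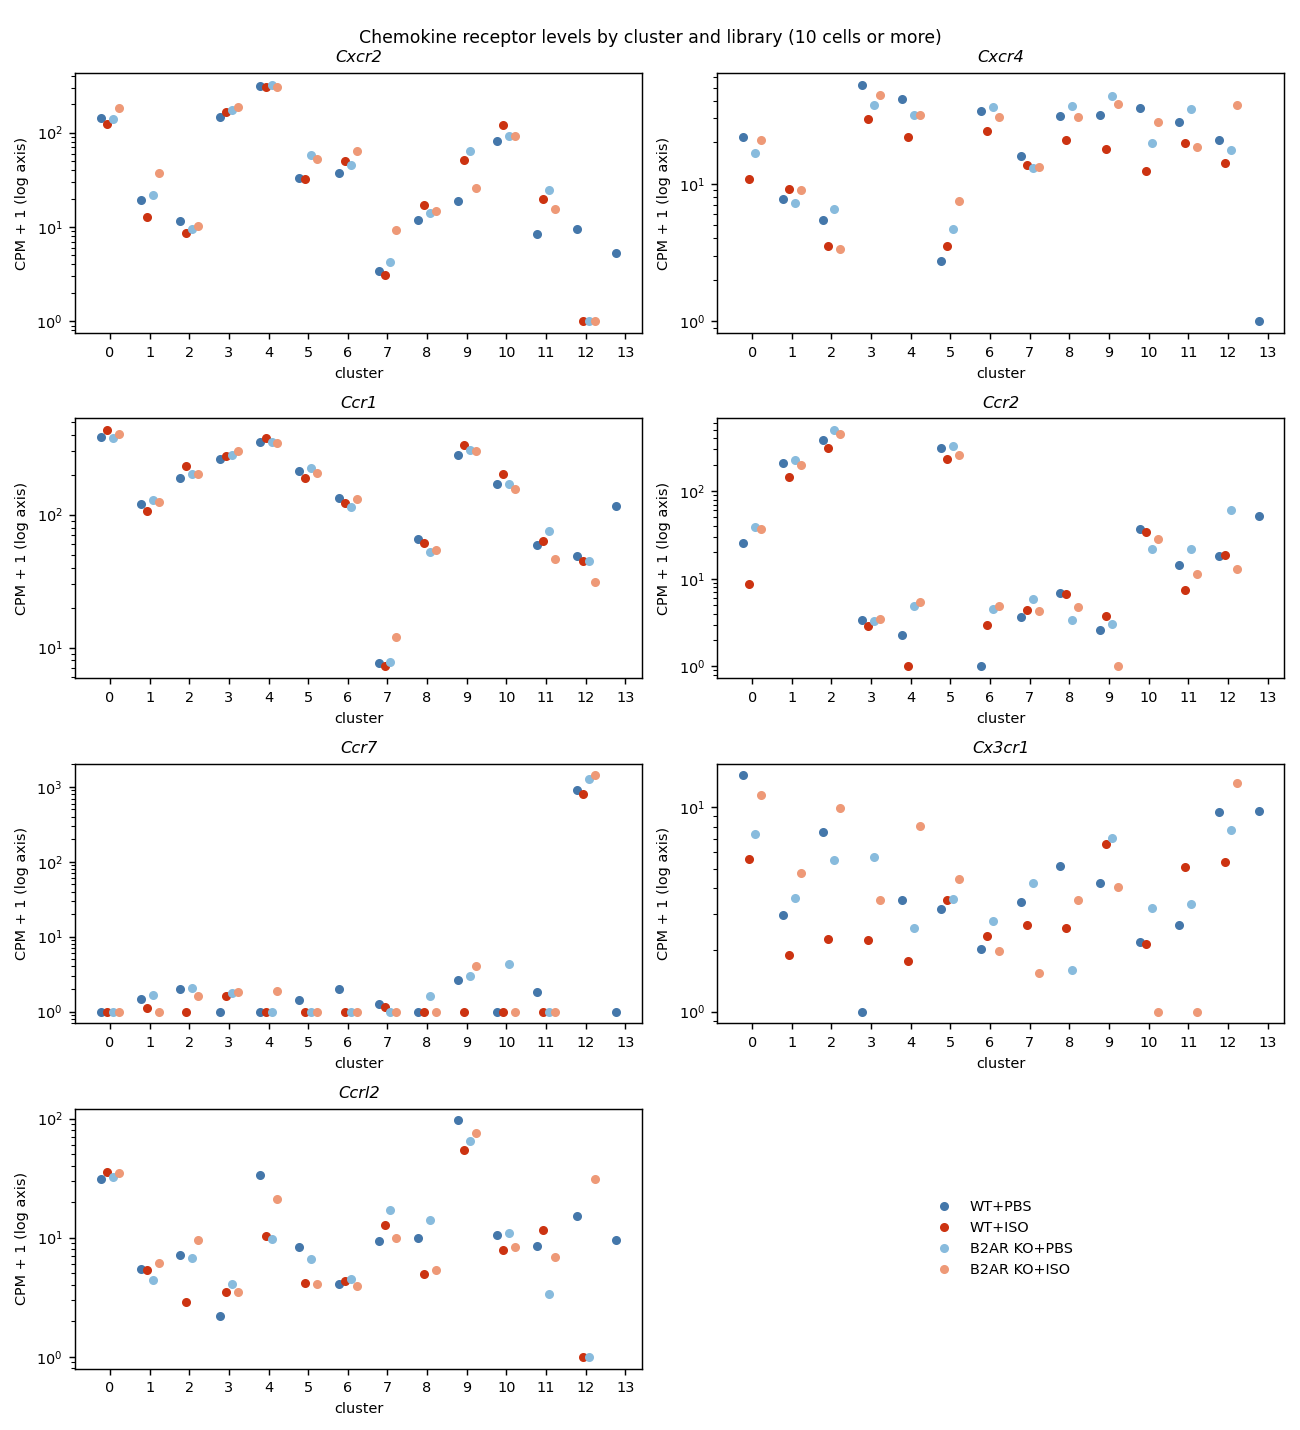
Level of each member (CPM + 1, log axis) in each cluster with at least 10 cells of a library, for the 4 libraries. Cxcr2 peaks in cluster 4, Ccr1 in clusters 0 and 4, Ccr2 in clusters 2, 5 and 1, Ccr7 in cluster 12 and Ccrl2 in cluster 9.

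Cells differed in how many members had a UMI. No member was found in 15.2% of cells, 1 in 32.3%, 2 in 37.8%, 3 in 12.8% and 4 in 1.72%. Of 2896 cells with Cxcr2, 78.1% also had Ccr1 and 12.5% Cxcr4. These shares depend on depth, and a missing UMI does not show that a cell lacked the receptor.

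The genes most like each member were taken over 48 sums of a cluster and a library with at least 50 cells, by Pearson's r of log2(CPM + 1) among 9238 genes. These sums share libraries and cells of like type, so r is a description. For Cxcr2 they were Glipr2 (r = 0.925), S100a6 (0.922) and Gda (0.906). For Cxcr4 they were Iqgap2 (r = 0.932), Fgd4 (0.906) and Rdh12 (0.903). For Ccr1 they were Tarm1 (r = 0.98), Bst1 (0.972) and Sh3glb1 (0.972), and for Ccr2 Lgals1 (r = 0.939), Gpr183 (0.932) and Ifi30 (0.916). Ccrl2 had r up to 0.811 (Ninj1, then Mapkapk2 at 0.799 and Chka at 0.794) and Cx3cr1 up to 0.707 (Gm11110, then Akap9 at 0.700). For Ccr7 r reached only 0.509 (Gm42418, then N4bp3 at 0.467 and Flcn at 0.466), since cluster 12 had under 50 cells in each library and was not among the sums.

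The first question of the design was how the receptors differed between ISO and PBS in WT cells. Ccr2, Ccr7 and Cx3cr1 were lower in WT+ISO, Ccrl2 and Cxcr4 lay lower by less, and Ccr1 and Cxcr2 by little or not at all. A gene was called when the libraries differed by at least 1.5-fold and the interval of the ratio excluded 1, with at least 50 UMIs in both together. By this rule 3 of 7 members were lower in WT+ISO, where 6.41% of 11852 genes were, and 0 of 7 were higher, where 1.32% were. The median log2 ratio was -0.51 over the 7 members and -0.02 over all genes tested.

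Ccr2 was at 130.3 CPM (126 to 135) in WT+PBS, 70.9 CPM (67.9 to 74.0) in WT+ISO, 193 CPM (188 to 199) in B2AR KO+PBS and 155 CPM (149 to 161) in B2AR KO+ISO. WT+ISO was the lowest of the 4 and no intervals overlapped. The log2 ratio of ISO over PBS was -0.88 (-0.96 to -0.80) in WT. Ccr7 was at 13.5 CPM in WT+PBS, 6.53 CPM in WT+ISO, 13.8 CPM in B2AR KO+PBS and 12.5 CPM in B2AR KO+ISO, so that WT+ISO stood apart from the other 3, whose intervals overlapped. The log2 ratio in WT was -1.05 (-1.31 to -0.79). Most Ccr7 UMIs lay in the 78 cells of cluster 12, and these intervals do not account for how cells differ. The share of cells with a Ccr7 UMI was 1.58% (1.11 to 2.20%) in WT+PBS and 0.751% (0.438 to 1.20%) in WT+ISO. It was 1.36% (0.966 to 1.87%) in B2AR KO+PBS and 0.932% (0.562 to 1.45%) in B2AR KO+ISO. By these shares the WT+ISO interval overlapped all the others. Cx3cr1 was at 3.65 CPM in WT+PBS (89 UMIs), 1.74 CPM in WT+ISO (51 UMIs), 3.29 CPM in B2AR KO+PBS (94 UMIs) and 4.39 CPM in B2AR KO+ISO (85 UMIs). Of the CPM intervals of Cx3cr1, only that of WT+ISO lay apart from the others, and the log2 ratio in WT was -1.07 (-1.60 to -0.56).

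By themselves, these whole-library ratios do not tell fewer cells of a type from less RNA per cell. Of the cells of each library, cluster 2 held 8.78% in WT+PBS, 4.37% in WT+ISO, 16.2% in B2AR KO+PBS and 12.5% in B2AR KO+ISO. In this order cluster 5 held 6.79, 4.11, 8.82 and 9.37%, and cluster 1 held 11.9, 14.5, 11.2 and 9.27%. Cluster 12 held 1.13, 0.574, 0.932 and 0.687%. With the clusters set to the same weights in every library, 1 of 7 members remained past the call in WT, Cx3cr1 at -0.85, while Ccr2 stood at -0.40 and Ccr7 at -0.16. The interval behind that call was the whole-library one moved to the new ratio, and cluster 2 held only 2 Cx3cr1 UMIs in WT+ISO. Markers of several other cell types were also lowest in WT+ISO, though not all followed the same course. The 7 macrophage markers summed to 155 CPM in WT+PBS, 64.2 in WT+ISO, 299.9 in B2AR KO+PBS and 225 in B2AR KO+ISO. The 8 migratory dendritic cell markers summed to 170.4, 77.5, 164 and 130.1 CPM in the same order. The 7 MHC class II dendritic cell markers summed to 993, 332, 1148 and 853 CPM. The 6 eosinophil markers summed to 69.1, 12.4, 88.8 and 14.1 CPM, low in both ISO libraries, unlike Ccr2, Ccr7 and Cx3cr1. The 6 monocyte markers lay closer together, at 1547, 1473, 1805 and 1764 CPM. Neutrophil markers did not follow this course. The 6 azurophil-granule markers summed to 4170, 5447, 3098 and 2318 CPM, highest in WT+ISO. The 7 specific-granule markers summed to 14768, 21447, 14272 and 18452 CPM, also highest in WT+ISO. The 8 mature neutrophil markers summed to 1571, 1687, 1604 and 1972 CPM. All markers of these lists had a UMI in every library except 1 of the 6 eosinophil markers in WT+ISO. Beyond the fixed weights, the part of these cells in the result was not tested.

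Of the other members in WT, Ccrl2 went from 11.3 to 7.92 CPM (log2 ratio -0.51, -0.77 to -0.25), Cxcr4 from 16.3 to 13.2 CPM (-0.30, -0.51 to -0.10) and Ccr1 from 149.5 to 130.3 CPM (-0.20, -0.26 to -0.13). None reached 1.5-fold, though each interval lay below 0, and Ccr1 changed sign at fixed cluster weights (0.06). Cxcr2 stood at 40.8 CPM in WT+PBS and 43.2 CPM in WT+ISO, with a ratio whose interval held 0 (0.08, -0.04 to 0.20).

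**Figure D3:**
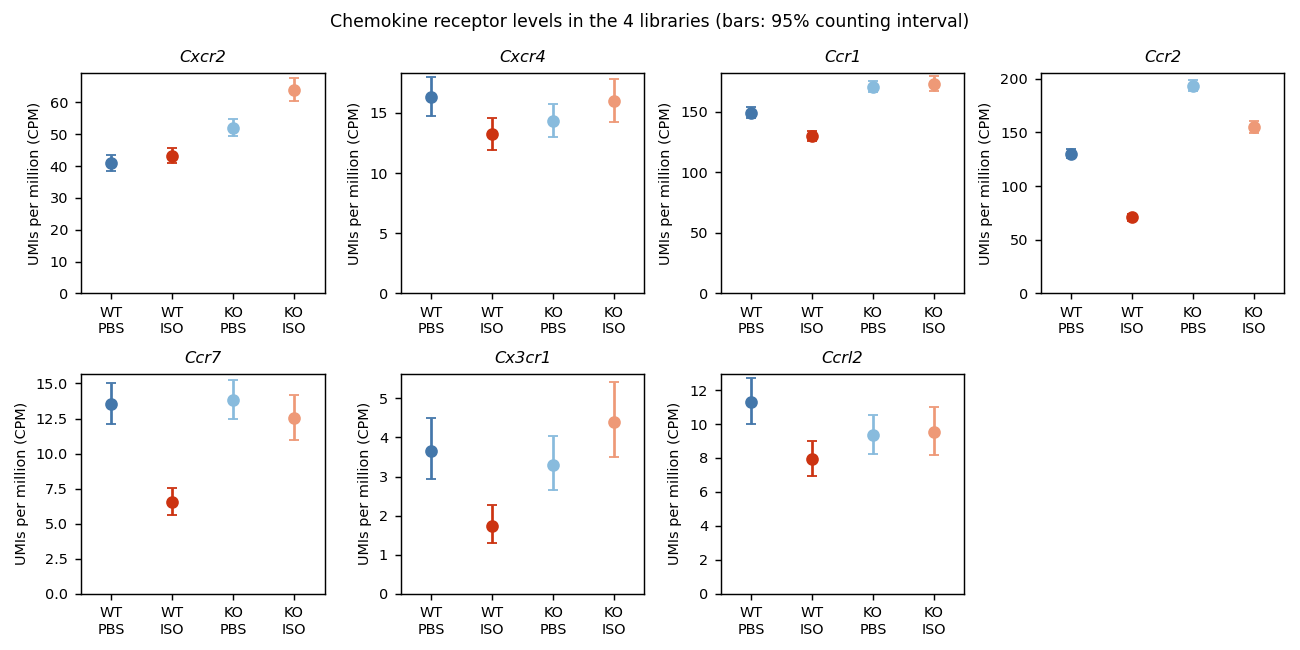
CPM of each member (linear axis from 0) in the 4 libraries, over all kept cells. Bars are 95% counting intervals. WT+ISO is the lowest library for Ccr2, Ccr7 and Cx3cr1, by intervals that meet none of the other 3, while Cxcr2 runs from 40.8 CPM in WT+PBS to 64.0 CPM in B2AR KO+ISO.

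The same contrast was made in the libraries labelled B2AR KO. None of the 7 members was called there, where 1.05% of 11849 genes were higher and 1.38% lower. Ccr2 was lower in ISO by a log2 ratio of -0.32 (-0.39 to -0.26), and Ccr7 stood at -0.14 (-0.38 to 0.09). Cx3cr1 stood at 0.42 (-0.03 to 0.85), Cxcr4 at 0.16 (-0.06 to 0.37), Ccr1 at 0.02 (-0.04 to 0.08), Ccrl2 at 0.02 (-0.25 to 0.30) and Cxcr2 at 0.30 (0.19 to 0.41). The median over the members was 0.02, beside -0.04 over all genes tested.

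The ratio in WT was below that in B2AR KO for all 7 members. The share of all genes with the same order was not counted, so this has no background beside it. The ratios are of whole libraries, and by themselves do not tell fewer cells of a type from less RNA per cell. The difference (WT minus B2AR KO, log2) was -1.49 for Cx3cr1 (-2.14 to -0.84), -0.91 for Ccr7 (-1.25 to -0.56), -0.56 for Ccr2 (-0.66 to -0.46), -0.53 for Ccrl2 (-0.90 to -0.16), -0.46 for Cxcr4 (-0.75 to -0.17), -0.22 for Ccr1 (-0.31 to -0.13) and -0.22 for Cxcr2 (-0.38 to -0.06). These intervals are Wald intervals of the counts, and with 1 culture per group the interaction itself could not be tested. That of Ccr7 rests mostly on the 78 cells of cluster 12 and does not account for how cells differ.

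**Figure D4:**
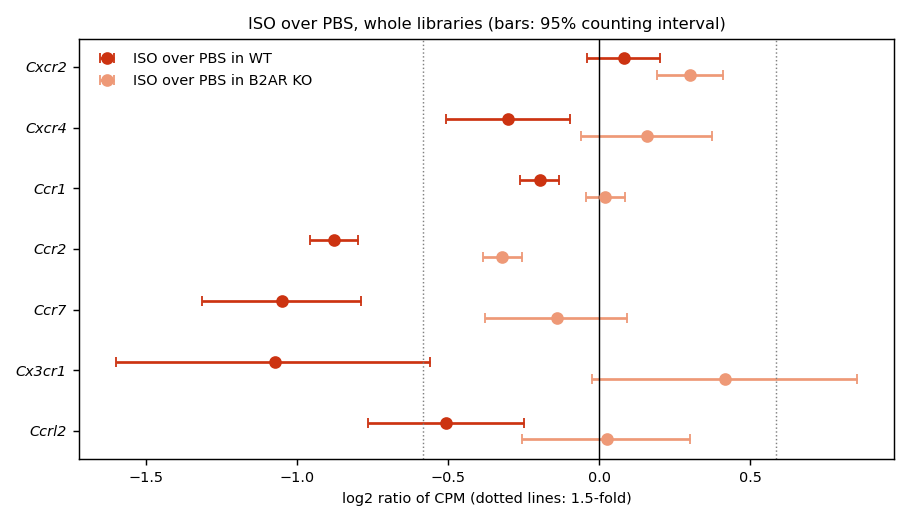
Log2 ratio of CPM, ISO over PBS, of each member in WT and in B2AR KO, with 95% counting intervals and dotted lines at 1.5-fold. The WT points of Ccr2 (-0.88), Ccr7 (-1.05) and Cx3cr1 (-1.07) lie beyond the left line, and no B2AR KO point reaches either line.

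The contrast of genotypes shares its libraries with the contrasts of ISO, so it adds no independent data. With PBS, 0 of 7 members were called between B2AR KO and WT, where 3.43% of 11968 genes were higher and 1.85% lower. Ccr2 was nearest, at a log2 ratio of 0.57 (0.51 to 0.63), and was past the threshold with each cell weighted equally (0.70). Cxcr2 stood at 0.35, Ccr1 at 0.19, Ccr7 at 0.03, Cx3cr1 at -0.15, Cxcr4 at -0.19 and Ccrl2 at -0.27. With ISO, 3 of 7 were higher in B2AR KO, where 10.0% of 11714 genes were, and 0 of 7 lower, where 6.74% were. They were Cx3cr1 at 1.34 (0.82 to 1.87), Ccr2 at 1.13 (1.05 to 1.21) and Ccr7 at 0.94 (0.66 to 1.22). At fixed cluster weights Ccr2 fell to 0.43, short of the call.

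Within clusters, Cxcr4 was the member with the most calls for ISO in WT. Of the 8 clusters with at least 50 Cxcr4 UMIs in both libraries together, 7 had a ratio below 0 and 4 were called. In cluster 0 Cxcr4 went from 21.0 CPM (38 UMIs) to 9.91 CPM (13 UMIs), a log2 ratio of -1.08 (-2.12 to -0.15), where 6.48% of the genes tested in that cluster were lower. In the mature neutrophil-like cluster 4 it went from 40.2 CPM (32 UMIs) to 20.8 CPM (27 UMIs), a ratio of -0.95 (-1.75 to -0.17), where 5.68% were lower. In cluster 3 it went from 51.2 to 28.7 CPM (-0.84, -1.47 to -0.20; 2.67% lower) and in cluster 8 from 30.3 to 19.9 CPM (-0.61, -1.14 to -0.07; 2.32% lower). These intervals are wide, since each value rests on 13 to 76 UMIs.

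In B2AR KO, 0 of 7 clusters were called for Cxcr4, with ratios from -0.28 to 0.35. In these clusters only 1.08 to 2.61% of the genes tested were lower with ISO and 1.26 to 2.65% higher. Over the 5 neutrophil-like clusters together, Cxcr4 stood at 26.7 CPM in WT+PBS, 18.3 CPM in WT+ISO, 26.3 CPM in B2AR KO+PBS and 27.5 CPM in B2AR KO+ISO. WT+ISO was the lowest, and the log2 ratio of ISO over PBS was -0.55 (-0.81 to -0.28) in WT and 0.06 (-0.23 to 0.35) in B2AR KO. At fixed weights of all clusters the ratio in WT was -0.56, larger than the -0.30 of the whole libraries but still short of 1.5-fold.

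Ccr2 was below 0 with ISO in all 5 clusters tested in WT and in all 4 tested in B2AR KO. In cluster 2 it was at 376 CPM in WT+PBS and 310.4 CPM in WT+ISO (-0.28, -0.43 to -0.12), in cluster 5 at 305 and 232 CPM (-0.40, -0.58 to -0.21) and in cluster 1 at 205 and 143 CPM (-0.52, -0.63 to -0.40). None of these 3 reached 1.5-fold. In B2AR KO the Ccr2 ratio was -0.149 (-0.241 to -0.058) in cluster 2 and -0.326 (-0.466 to -0.188) in cluster 5. There it was -0.165 (-0.295 to -0.035) in cluster 1 and -0.095 (-0.685 to 0.478) in cluster 0, also short of 1.5-fold. Only cluster 0 was called in WT, from 24.3 CPM (44 UMIs) to 7.62 CPM (10 UMIs), where its ratio was -1.67 (-2.83 to -0.66) beside 6.48% of genes lower. In the same cluster Ccr2 was also called higher in B2AR KO than in WT, at 0.64 with PBS (1.46% of genes higher) and 2.22 with ISO (5.64% higher). These calls rest on few cells of cluster 0. The 10 highest of 464 cells held 32 of the 44 UMIs in WT+PBS, and the 10 highest of 450 held 44 of 72 in B2AR KO+PBS.

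**Figure D5:**
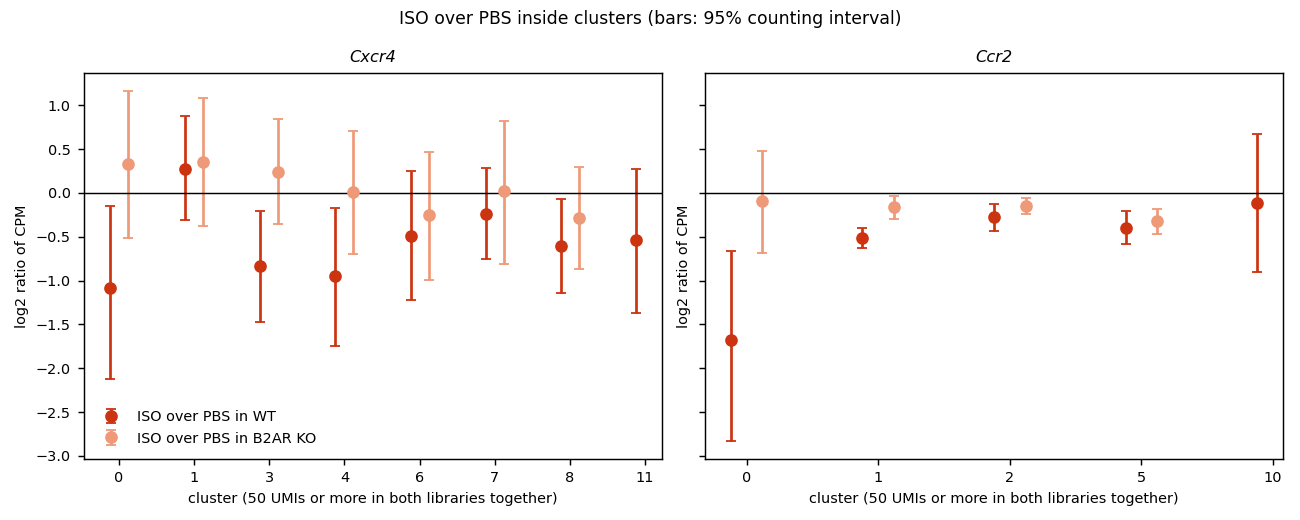
Log2 ratio of CPM, ISO over PBS, inside clusters for Cxcr4 and Ccr2, in WT and in B2AR KO, with 95% counting intervals. For Cxcr4, 7 of 8 WT points lie below 0 and 5 of 7 B2AR KO points above it, while all Ccr2 points lie below 0 in both genotypes.

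Cxcr2 was called for ISO in none of the neutrophil-like clusters with enough UMIs and in 1 other cluster. In the mature cluster 4 its ratio of ISO over PBS was -0.03 (-0.26 to 0.21) in WT and -0.09 (-0.30 to 0.13) in B2AR KO. In cluster 6 it was 0.44 (-0.16 to 1.06) and 0.49 (-0.07 to 1.06), and in cluster 8 of WT 0.57 (-0.20 to 1.42). Over the 5 neutrophil-like clusters together Cxcr2 was at 53.9 CPM in WT+PBS, 56.4 CPM in WT+ISO, 83.6 CPM in B2AR KO+PBS and 97.7 CPM in B2AR KO+ISO. Both B2AR KO libraries were higher, and both genotype ratios were called, at 0.63 (0.46 to 0.81; 2.07% of genes higher) with PBS and 0.79 (0.64 to 0.94; 5.53% higher) with ISO. For Cxcr2, no single neutrophil-like cluster with enough UMIs was called between genotypes. The azurophil-like cluster, where Cxcr2 was lowest, held 165 cells in WT+PBS, 258 in WT+ISO, 143 in B2AR KO+PBS and 85 in B2AR KO+ISO, and its part in the pooled ratio was not tested. With ISO, Ccr1 (0.614, 0.495 to 0.732) and Cxcr4 (0.59, 0.311 to 0.866) were also past the call in these pooled clusters, beside the same 5.53%. Neither was called in a single neutrophil-like cluster, where 1.87 to 5.68% of genes were higher. For Ccr1 these ratios were 0.129 in cluster 3, -0.102 in cluster 4, 0.096 in cluster 6 and -0.18 in cluster 8. In cluster 7 the Ccr1 ratio was 0.829 (-0.03 to 1.647). In all other clusters together Cxcr2 stood at 0.167 (0.009 to 0.326) with PBS and 0.585 (0.405 to 0.764) with ISO.

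In cluster 1 Cxcr2 was at 18.4 CPM in WT+PBS, 11.8 CPM in WT+ISO, 21.0 CPM in B2AR KO+PBS and 36.3 CPM in B2AR KO+ISO, so the libraries with ISO were the lowest and the highest. There it was called lower with ISO in WT (-0.63, -1.05 to -0.23; 1.72% of genes lower), higher with ISO in B2AR KO (0.79, 0.43 to 1.15; 1.26% higher) and higher in B2AR KO than in WT with ISO (1.62; 6.24% higher). In cluster 5 it was higher in B2AR KO than in WT with PBS (0.83; 1.93% of genes higher) and with ISO (0.70; 4.03% higher). Ccr1 was called in 1 cluster, cluster 11, where it was lower with ISO in B2AR KO, from 73.8 CPM (63 UMIs) to 45.4 CPM (31 UMIs; log2 ratio -0.70, beside 2.16% of genes lower), and its 12 ratios in WT ran from -0.18 to 0.31.

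Ccr7 could be compared in cluster 12 alone, where WT+PBS held 25 cells, WT+ISO 13, B2AR KO+PBS 26 and B2AR KO+ISO 14. Its level there was 904 CPM in WT+PBS, 812 CPM in WT+ISO, 1259.6 CPM in B2AR KO+PBS and 1427 CPM in B2AR KO+ISO. The ratio of ISO over PBS was -0.15 (-0.42 to 0.11) in WT and 0.18 (-0.06 to 0.42) in B2AR KO, so the lower Ccr7 of the whole WT+ISO library was not seen per cell of this cluster at this depth. Both B2AR KO libraries lay above both WT libraries, and the ratio with ISO was called (0.81, 0.53 to 1.10; 12.6% of genes in that cluster higher). With so few cells a single one can weigh heavily: the highest cell of B2AR KO+ISO held 59 of its 237 Ccr7 UMIs. In WT+ISO the highest cell held 22 of 186.

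Ccrl2 was called lower with ISO in cluster 9 of WT, from 95.4 CPM (59 UMIs) to 53.2 CPM (19 UMIs; -0.84, -1.67 to -0.07), where 5.41% of genes were lower. In the azurophil-like cluster 7 it was at 8.32 CPM in WT+PBS, 11.8 CPM in WT+ISO, 16.1 CPM in B2AR KO+PBS and 8.84 CPM in B2AR KO+ISO. It was called lower with ISO in B2AR KO (-0.87; 1.12% of genes lower) and higher in B2AR KO with PBS (0.96; 1.24% higher), both of which rest on the high value of B2AR KO+PBS. Cx3cr1 had enough UMIs in 1 cluster and comparison only, the macrophage-like cluster in B2AR KO, where it went from 4.53 CPM (26 UMIs) to 8.92 CPM (30 UMIs) and was called higher with ISO (0.98, 0.17 to 1.79; 1.18% of genes higher).

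Other receptors, ligands and signaling genes were described by lists. Of the 17 other chemokine receptors, 3 had enough UMIs in each comparison. With ISO, 2 of the 3 were lower in WT, where 6.41% of all genes were. In B2AR KO 1 was higher, where 1.05% of all genes were. Cxcr5, the receptor for CXCL13, was lower in WT+ISO, at 4.80 CPM against 8.20 CPM (log2 ratio -0.77), and higher with ISO in B2AR KO (0.72). Between genotypes with ISO, 2 of the 3 were higher in B2AR KO, Cxcr5 among them (1.13), where 10.0% of all genes were. With PBS 1 was lower, Ccr10 (-0.73 on 29 and 41 UMIs), where 1.85% of all genes were. Of 8 other chemoattractant receptors tested, 2 were lower with ISO in WT (beside 6.41% of all genes) and none in B2AR KO (beside 1.38%): Cmklr1, the signaling receptor for chemerin, at -1.14, and C3ar1, which binds complement C3a, at -1.10. Between genotypes with PBS, 1 of the 8 was higher in B2AR KO, C3ar1 (0.64), beside 3.43% of all genes. With ISO, 3 of the 8 were higher, beside 10.0% of all genes: C3ar1 (1.46), C5ar2 (0.86) and Cmklr1 (0.64).

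Of 10 ligands tested in WT, Cxcl3, a ligand of CXCR2, was higher with ISO (25.6 against 13.9 CPM, log2 ratio 0.89), and Ccl4 (-1.13) and Cxcl1 (-0.85 on 24 and 36 UMIs) were lower, where 1.32% of all genes were higher and 6.41% lower. In B2AR KO, of 12 ligands tested, Cxcl1 was higher (1.24) and Ccl7 lower (-1.52) with ISO, beside 1.05% and 1.38% of all genes. Of 12 signaling genes tested in WT, 2 were lower with ISO, beside 6.41% of all genes. They were Rgs1, a regulator that shortens G protein signals (-1.23), and Grk3, a receptor kinase (-0.65). None was called in B2AR KO, where 1.05% of all genes were higher and 1.38% lower. Between genotypes with ISO, 3 of 12 tested were higher in B2AR KO, where 10.0% of all genes were. The 4 partners of marrow retention and release, Itga4, Itgb1 and Csf3r among them, had 0 calls for ISO in either genotype. Of all genes, 1.32% were higher and 6.41% lower in WT, and 1.05% and 1.38% in B2AR KO. Csf3r, the G-CSF receptor, was higher in B2AR KO than in WT with ISO (0.72), where 10.0% of all genes were. The median log2 ratio with ISO in WT was -0.15 over the chemoattractant receptors, -0.37 over the ligands, -0.08 over the signaling genes and -0.15 over the partners, beside -0.02 over all genes.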

How the data were processed

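Live CD11b+ cells of 4 cultures were tagged, pooled and captured together, and each library is the cells the authors assigned to 1 tag. The deposited values are counts of UMIs per gene and cell, with no normalization. Per the labels they were made with Cell Ranger 6.0.0 on mm10 (with Seurat named downstream), whereas the file headers give 7.0.0, a difference that could change the counting of intronic reads. Doublets were not called here.

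Barcodes with under 200 genes (23) or over 10% mitochondrial UMIs (222) were left out. After log transformation of values scaled to 10000 a cell, clustering used scanpy 1.11.5 and leidenalg 0.10.2 (2000 variable genes without the members and gene lists, 30 components, 15 neighbours, resolution 1.0, seed 0). A cluster took a class's name when at least 1 marker was among its 10 leading genes, at least 3 were in 10% of its cells at a log2 ratio of 1 or more over the other cells, and no other class had as many leading. This rule was written after the clusters had been seen, while the markers, members and gene lists were chosen with earlier results of these data known. Named genes were the 7 members, list genes called (at most 4 per list), and the 3 genes most like each member (at least 500 UMIs).

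UMIs were summed per library, or per cluster and library, and divided by all UMIs of those cells (CPM). Intervals are 95%: exact Poisson for CPM, Clopper-Pearson for shares, exact conditional binomial for ratios, and Wald for differences of ratios (scipy 1.17.1). For library ratios at fixed cluster weights or equal weight per cell, the whole-library interval was moved to the new ratio. The intervals cover counting error only, and the moved ones do so for the whole-library ratio, not for the reweighted one. With 1 library per group no p-value was computed. The scripts were tested on simulated data. Alternatives covered cell filters, scaling, cluster weights, clustering settings and thresholds. Promoters came from RefSeq (GRCm38.p6). The Ccr7 promoter was not analysed here. Some genes that the lists, the naming rule or the check of the labels would name are not reported here.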

Additional observations from a re-analysis of the deposited data

Results flagged for a closer look

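For 4 members the log2 ratio of ISO to PBS had opposite signs in WT and B2AR KO, though the B2AR KO interval held 0 for each of them. Each pair of libraries holds 1 culture per arm, so these differences were not tested.

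Cx3cr1, the fractalkine receptor, stood at -1.07 in WT and 0.42 in B2AR KO (log2, ISO over PBS), a difference of -1.49. The counts behind it were 51 to 94 UMIs per library. Ccrl2, the chemerin-binding receptor, stood at -0.51 and 0.02, a difference of -0.53. Cxcr4, the retention receptor, stood at -0.30 and 0.16, a difference of -0.46. Ccr1 stood at -0.20 and 0.02, a difference of -0.22. At fixed cluster weights the B2AR KO ratio was -0.02 for Ccrl2 and -0.02 for Cxcr4, so these no longer lay on the other side of 0 from WT, and that of Ccr1 in WT was 0.06, on the same side as in B2AR KO.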

How the results depend on the processing

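No paired analysis was possible because the 4 groups are single libraries, and for the same reason none could be left out. Of 40 counts of called members, 38 stayed within 1.5 times. Clusters at fixed weights took the count for ISO in WT from 3 to 1, and equal weight per cell took that between genotypes with PBS from 0 to 1. Of 30 ratios between cell classes, 23 moved by less than counting error. Those that moved were Cxcr2 (6.05 at resolution 1.5, 6.04 with 4000 variable genes), Cxcr4 (1.54 with equal weight), Ccr2 (4.27 and 5.79 at the same 2 clustering settings) and Ccr7 (9.13 at resolution 1.5, 8.93 with equal weight). Thinning cells to 2000 UMIs, with the 181, 127, 218 and 184 shallower cells of WT+PBS, WT+ISO, B2AR KO+PBS and B2AR KO+ISO left out, lowered all 7 shares of cells with a UMI, to 46.5% for Cxcr2 in cluster 4, 7.58% for Cxcr4 in cluster 3, 49.9% for Ccr1 in cluster 4, 54.7% for Ccr2 in cluster 2, 85.7% for Ccr7 in cluster 12, 12.3% for Ccrl2 in cluster 9 and 1.20% for Cx3cr1 in cluster 2. Of 196 ratios of single members, 170 moved by less than counting error, and no called ratio changed sign. Cx3cr1 had the fewest UMIs, 51 to 94 per library, followed by Ccrl2 with 184 to 275. The monocyte name was given to 1 cluster with the stricter cell filter. The MHC class II dendritic cell name was given under none of the 5 settings that changed the cells or the clustering. Equal weight per cell kept the main clusters, so no name could change there.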

Other observations

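Cxcr5, the receptor for CXCL13 and best known from B cells, was, among the chemokine receptors outside the members with at least 50 UMIs in the libraries compared, the one whose ISO ratios lay furthest apart in the 2 genotypes, chosen after its values were seen. It stood at 8.20 CPM in WT+PBS (200 UMIs), 4.80 CPM in WT+ISO (141 UMIs), 6.37 CPM in B2AR KO+PBS (182 UMIs) and 10.5 CPM in B2AR KO+ISO (203 UMIs). The 8 markers of T, B or NK cells, of which 4, 4, 7 and 5 had a UMI, summed to 48.7, 52.0, 33.6 and 27.0 CPM in the same order, and 3286 of their UMIs lay in the azurophil-granule neutrophil progenitor-like cluster 7. In that cluster only 1 of the 8 was found in at least 10% of cells, and it was 1 of the 10 leading genes.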
